A study of Mus musculus with 70 samples.

Results

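Ly6Chigh monocytes of resilient (RES) mice were compared with those of control (CON) mice in bulk RNA-seq libraries of sorted leukocytes. The 12 libraries, 6 RES and 6 CON, were taken by their cell type and group labels out of 70 libraries in the series, which also holds 6 Ly6Chigh libraries of susceptible (SUS) mice and libraries of Ly6Clow monocytes, B cells and T cells. Both groups were wild-type male C57BL/6J mice that were 7 to 8 weeks old at the start. RES mice went through chronic social defeat stress (CSDS) for 10 days, in which an aggressive CD-1 resident attacked them daily and then stayed behind a perforated divider, and they had a social interaction ratio of 1 or higher afterwards. CON mice lived in pairs on either side of such a divider and met no aggressor. Resilience was thus read from behaviour after the stress, so the RES and CON groups differ in exposure as well as in outcome. Leukocytes came from trunk blood after lysis of red cells, and the monocytes were sorted as CD11b+ Ly6G- B220- CD90.2- Ly6Chigh events. The source label of the libraries reads brain, while the text of the series and the methods describe blood, and the libraries are treated here as blood monocytes. The labels name no animal, batch or sort day for any library, so p-values measure the spread between these libraries, part of which may be technical.

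Ly6Chigh monocytes, also called classical or inflammatory monocytes, leave the bone marrow through the chemokine receptor CCR2 and circulate for a short time. They enter inflamed tissue, become macrophages or dendritic cell-like cells there, or turn into Ly6Clow patrolling monocytes in the blood. They develop from myeloid progenitors that they share with neutrophils, and their RNA can hold transcripts of neutrophil-type granule proteins. Stress acts on their production and release through the sympathetic nerves of the marrow and through glucocorticoids.

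The libraries carried the markers of their label. Ly6c2, the surface antigen of the gate, had 236 to 283 CPM (counts scaled to library size by TMM) in CON and 252 to 523 CPM in RES, a log2 fold change of 0.44 ± 0.23 (SE; adjusted p = 0.287). Ccr2 ranged from 1460 to 2400 CPM in CON and from 1264 to 2733 CPM in RES (log2 fold change -0.12; adjusted p = 0.831). None of 6 Ly6Chigh markers, which also include F13a1, Vcan and Fn1, passed the test, although their mean log2 level was 0.26 higher in RES, with 5 of 6 RES libraries above all CON libraries. The mean of 7 Ly6Clow markers was 0.32 lower in RES, with 3 of 6 RES libraries below all CON libraries and none past the test. Total counts lay between 31816523 and 41005751 in CON and between 19769835 and 67038231 in RES. More genes had a count in CON (17577 to 20543) than in RES (16762 to 18091; two-sided exact permutation test, p = 0.00866, adjusted p = 0.0346 over 4 library measures), with no detectable difference in total count (p = 0.448). In the other cell types, RES B cell replicate 6 held T cell markers (2011 CPM summed, B cell markers 10.4 CPM) and RES T cell replicate 6 held B cell markers (4344 CPM summed, T cell markers 15.6 CPM), against their labels, and comparisons with those cells are given with and without them.

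Markers of other cells that the sort could hold also moved with the group. The 8 red cell markers found summed to 332 to 1142 CPM in CON and 1046 to 4135 CPM in RES. Their mean log2 level was 1.51 higher in RES, with all 6 RES libraries above all 6 CON libraries, and 2 of 8 were called, among them Slc4a1, the anion exchanger of the red cell membrane. The globin genes Hba-a1, Hba-a2, Hbb-bs and Hbb-bt had log2 fold changes of 1.66, 1.53, 1.61 and 1.61 (adjusted p between 0.0668 and 0.09). The alpha genes (Hba) are near-identical copies of each other, as are the beta genes (Hbb), and reads could be split within each pair. Dendritic cell markers were low, 11.6 to 24.4 CPM summed in CON and 2.42 to 10.5 CPM in RES, and their mean log2 level was 1.14 lower in RES, with all 6 RES libraries below all CON libraries. None of the 4 tested dendritic markers passed the test. Platelet markers summed to 7.32 to 12.5 CPM in CON and 9.35 to 24.6 CPM in RES (mean log2 difference 0.55, 5 of 6 RES libraries above CON). Among 8 neutrophil markers, Ly6g was at or near 0 in every library and Stfa2l1 was at 0, and the set differed by 0.12. Cd177 had 262 to 347 CPM in CON and 378 to 547 CPM in RES (log2 fold change 0.53, adjusted p = 0.0288). Ltf, Ngp and Camp reached 97.4, 226 and 30.8 CPM in CON and 176, 366 and 62.0 CPM in RES, and did not pass. Retnlg was lower in RES (-1.17) and did not pass either. These genes also stand in a granule list below. In bulk libraries, fewer cells of a type and less RNA per cell cannot be told apart. The part of these other cells in the results below was not tested beyond the fits that hold their marker level as a covariate, which had little to compare, since the red cell and dendritic levels separate the groups.

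**Figure D1:**
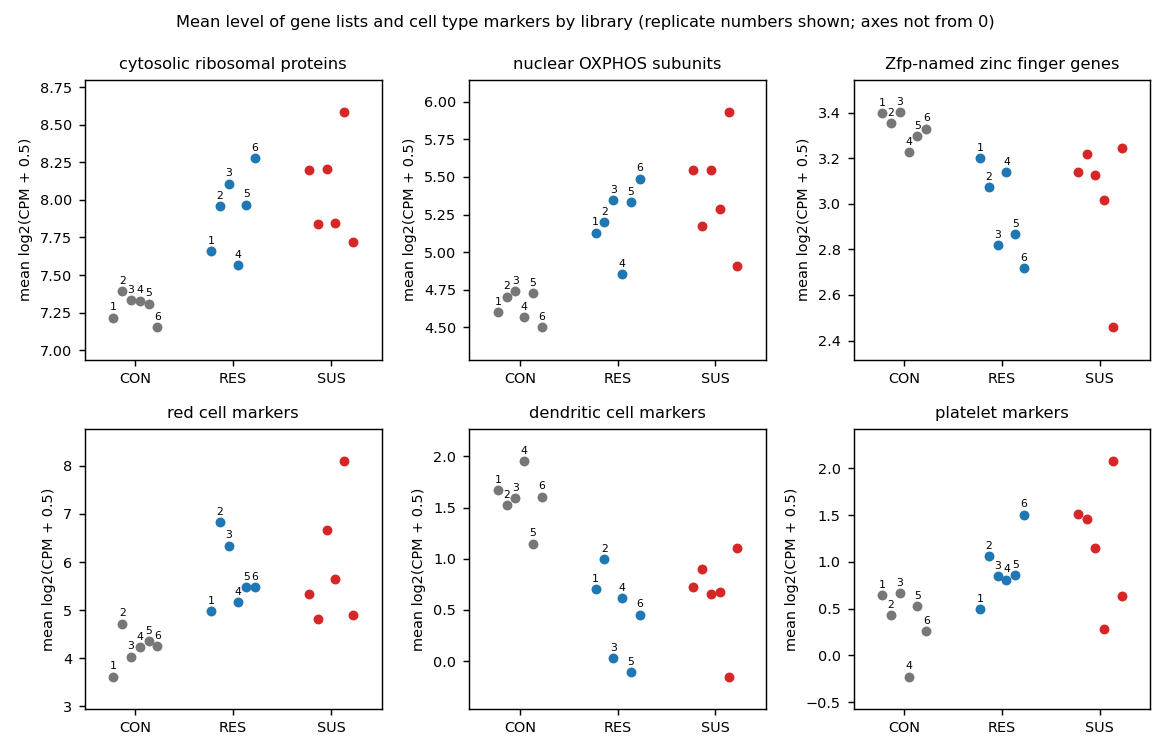
Mean log2(CPM + 0.5) of 3 gene lists (cytosolic ribosomal proteins, nuclear-encoded oxidative phosphorylation subunits and Zfp zinc finger genes) and of red cell, dendritic cell and platelet markers in each Ly6Chigh library of CON, RES and SUS mice. Points are libraries (n = 6 per group), numbered by replicate in CON and RES, on axes that do not start at 0; RES libraries lie above CON for ribosomal, oxidative phosphorylation and red cell genes and below CON for Zfp and dendritic genes.

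Of 16955 genes tested, 90 were called higher and 79 lower in RES, which is 0.531% and 0.466% of the genes (called means an adjusted p below 0.05 together with a fold change over 1 on the log2 scale, in either direction). The adjusted p alone was passed by 629 genes that were higher (3.71%) and 213 that were lower (1.26%), and 3599 genes stood below 0.05 before adjustment. These shares are the background for the counts given for each gene list below. The median log2 fold change over all genes was -0.03. The 90 genes that rose held 81 protein-coding genes, 7 pseudogenes and 2 other non-coding or unclassified genes. The 79 that fell held 39, 12 and 28 of these types. Among the 16955 genes tested, 12145 were protein-coding, 1685 were pseudogenes and 3125 were of the other types. Levels of RES and CON did not overlap in 73 of the 169 called genes (43.2%), against 762 of all genes tested (4.49%). The called genes were chosen by their difference in these same libraries, so a larger share among them follows from that choice. Low counts were more frequent among the lower calls, since 28 of the 79 lower genes and 9 of the 90 higher genes averaged under 50 counts. Such levels were also common among all genes. A fit on genes with a mean of at least 50 counts tested 12736, against 16955 in the main fit. It called 76 genes higher and 87 lower. The split into higher and lower genes depended on the scaling and the tool. DESeq2 called 127 higher and 380 lower, edgeR with the DESeq2 size factors called 61 higher and 91 lower, and a fit with offsets for GC content and length, added after the data were seen, called 113 higher and 56 lower.

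The number of calls also turned on single libraries. Without CON replicates 1, 2, 3, 4 or 6 it was 48, 99, 74, 99 or 100, and without CON replicate 5 it was 148. Leaving out RES replicates 3, 5 or 6 gave 35, 51 or 29 calls, and leaving out RES replicates 1, 2 or 4 gave 365, 220 or 314. Without RES replicates 2 and 3 together, the RES libraries with the most red cell RNA, 9 genes were called, all higher. That fit was added after the data were seen, and no other pair was left out. Whether red cell RNA had a part in the lower number was not tested. With the mean red cell, platelet or dendritic marker level as a covariate no gene was called by edgeR, while 928, 1801 and 1033 genes stood below 0.05 before adjustment. In simulated counts of the same size, 48% of genes with a true log2 fold change of 1 and 80% of those with 2 passed the adjusted p. The changed genes were taken only from genes that averaged at least 50 counts, and each gene was drawn independently. The shares therefore do not cover genes with fewer counts or shifts that many genes of a library share.

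**Figure D2:**
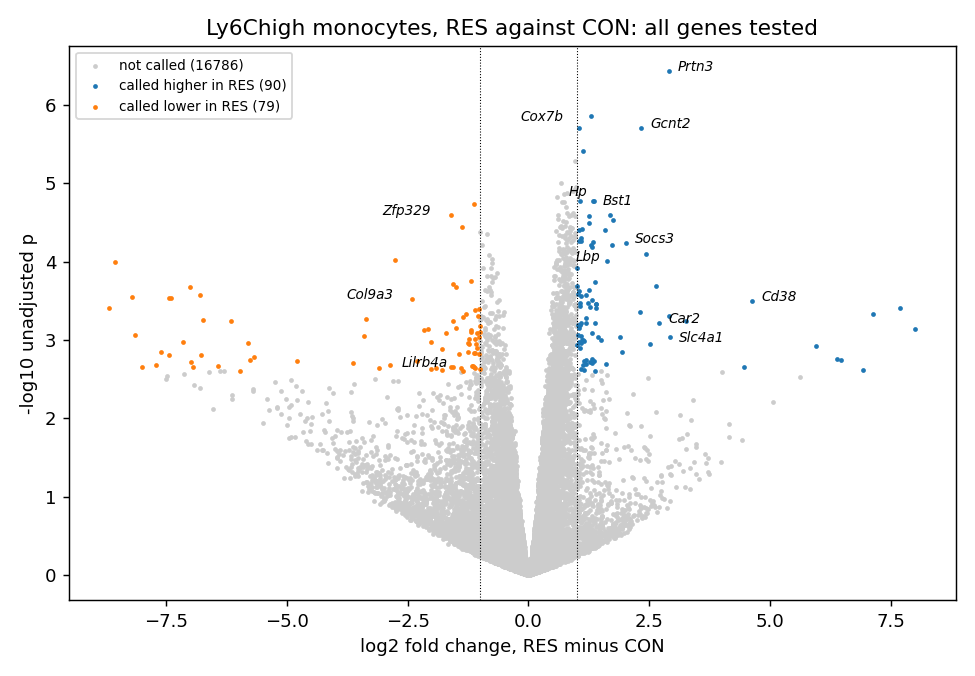
Log2 fold change of RES against CON (x axis) and -log10 of the unadjusted p (y axis) for 16955 genes of Ly6Chigh monocytes, with the 90 higher and 79 lower genes coloured. Prtn3, Gcnt2, Socs3 and Bst1 stand among the higher genes and Zfp329 among the lower ones.

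Some genes of granule and acute phase proteins that monocytes share with neutrophils rose in RES, and most did not pass the test. Of 19 such secondary and tertiary granule genes tested, 5 passed the adjusted p, all higher, and 2 of them were called, and the list's median log2 fold change was 0.77. Of 12 primary granule and progenitor genes 1 passed, Prtn3, and the median was 0.65. Prtn3, proteinase 3, a serine protease of the azurophil granule (chromosome 10, 79874476 to 79883174 in GRCm38), ranged from 1.71 to 2.64 CPM in CON (median 2.08) and from 3.56 to 34.1 CPM in RES (median 14.5). The lowest RES library lay above the highest CON library, and the log2 fold change was 2.91 ± 0.42 (SE, adjusted p = 0.00627). Hp, haptoglobin, which binds free haemoglobin, had 245 to 373 CPM in CON (median 302) and 441 to 1149 CPM in RES (median 796), again without overlap (log2 fold change 1.36 ± 0.25, adjusted p = 0.0138). Mmp8, neutrophil collagenase, which cleaves fibrillar collagen, had 97.2 to 132 CPM in CON and 153 to 331 CPM in RES. Its log2 fold change of 0.96 ± 0.19 (adjusted p = 0.0138) passed the test but not the fold limit, with 6 of 6 RES libraries above CON. Chil3, a chitinase-like protein abundant in Ly6Chigh monocytes, passed with 0.93 and Cd177, a neutrophil surface protein, with 0.53. Cd300lf, an inhibitory receptor for lipids, ranged from 14.9 to 27.3 CPM in CON and from 21.5 to 101 CPM in RES, with 4 of 6 RES libraries above CON (log2 fold change 1.58). Prtn3, Hp, Mmp8 and Cd300lf passed the adjusted p in each of 12 fits that left out 1 library.

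The other granule genes spread widely within each group. The iron-binding protein gene Ltf, the cathelicidin gene Camp and Ngp had log2 fold changes of 0.76, 0.73 and 0.63 with adjusted p of 0.775, 0.786 and 0.821. Myeloperoxidase (Mpo, 0.74) and neutrophil elastase (Elane, 1.15) did not pass either. Of 13 matrix metalloproteinase, ADAM and TIMP genes only Mmp8 passed, and the median of the list was 0.14, a sign that turned under DESeq2 (-0.08). Adam10 and Adam17, which shed membrane proteins, did not pass either, with 145 to 183 CPM and 144 to 188 CPM in CON and 129 to 192 CPM and 129.9 to 185 CPM in RES.

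The next list held genes of the interleukin 6 family and of JAK-STAT signalling, among them receptor genes of other cytokines such as Il4ra and Csf2rb. Interleukin 6 and related cytokines act through JAK kinases and STAT3, and the protein made from Socs3 switches the receptor off again. Of 16 genes of this list tested, 7 passed the adjusted p, all higher, 2 were called, and the median log2 fold change was 0.39. Socs3, on chromosome 11 (117966079 to 117970047), had 22.2 to 44.3 CPM in CON (median 32.9) and 59.6 to 224 CPM in RES (median 126). No RES library was as low as any CON library, and the log2 fold change was 2.02 ± 0.40 (SE, adjusted p = 0.0140). Il4ra, the receptor subunit for interleukins 4 and 13, on chromosome 7 (125552120 to 125579474), had 76.4 to 107 CPM in CON and 104 to 373 CPM in RES. In 5 of 6 RES libraries it lay above every CON library (log2 fold change 1.32 ± 0.27, adjusted p = 0.0142). The others that passed were Bcl3, a nuclear cofactor of NF-kappaB (1.00), the survival kinase Pim1 (0.95), the shared receptor chain Csf2rb (0.68) and the transcription factors Stat3 (0.51) and Stat5b (0.44). Il6ra and Jak1 differed by -0.05 and 0.11 and did not pass. Only 2 genes of the list passed without RES replicate 3, 5 or 6, 3 without CON replicate 1 and 4 without CON replicates 2, 3, 4 or 6, and Socs3 and Il4ra passed in all 12 fits that left out 1 library.

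STAT proteins bind DNA at sites of the form TTCNNNGAA, which is its own reverse complement, so both strands are searched at once. The 250 bases before the RefSeq start of transcription were searched, and the match with its flanks is shown for 3 called genes that the text describes, in capitals (RefSeq promoters, GRCm38.p6, 5′ to 3′ on the strand of the gene). For Socs3 and Pla2g7 the windows lie inside the gene as GENCODE bounds it, since its outermost start lies further upstream than the RefSeq start. The Socs3 match begins 154 bases before the start, at chr11:117969482-117969550 on the minus strand. The window of Fcgr1, described below with the Fc receptors, is chr3:96294040-96294108 on the minus strand and its match begins 109 bases before the start. The window of Pla2g7, described below with the lipid genes, is chr17:43568276-43568344 on the plus strand and its match begins 145 bases before the start.
Socs3: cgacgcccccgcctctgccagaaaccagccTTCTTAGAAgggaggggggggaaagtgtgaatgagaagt
Fcgr1: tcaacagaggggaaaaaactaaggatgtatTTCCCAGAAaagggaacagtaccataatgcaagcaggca
Pla2g7: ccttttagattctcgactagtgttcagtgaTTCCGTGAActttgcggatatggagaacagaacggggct
The motif stood in 9 of 61 matched promoters of called higher genes (14.8%), in 1 of 35 of called lower genes (2.86%) and in 742 of 10340 of all genes tested (7.18%). In the IL-6 and JAK-STAT list it stood in 1 of 13, that of Socs3. A match describes the letters of the window and not a bound site.

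Receptors for antibody, complement and bacterial products formed another group. Of 18 Fc receptor and complement genes tested, 5 passed and all were higher, 3 of them called, with a median log2 fold change of 0.67. Fcgr4, an activating receptor for IgG on chromosome 1 (171018920 to 171029761), had 4.77 to 9.70 CPM in CON (median 6.65) and 12.9 to 37.2 CPM in RES (median 22.2). The groups did not overlap (log2 fold change 1.68 ± 0.32, adjusted p = 0.0138). Fcgr1, the high-affinity IgG receptor, had 70.9 to 93.4 CPM in CON and 116 to 212 CPM in RES, also without overlap (1.05 ± 0.21, adjusted p = 0.0138). The low-affinity receptor Fcgr3 (0.70) and the signalling chain Fcer1g that these receptors share (0.64) passed with smaller changes. C5ar1, the receptor for the complement fragment C5a, had a log2 fold change of 1.28 but did not pass without CON replicates 1 or 3 or RES replicates 3, 5 or 6. Without each of those libraries 3 genes of the list passed, and without RES replicate 4 the number was 8.

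Of 25 microbial sensing genes 3 passed, with a list median of 0.18. Cd14, the coreceptor for bacterial lipopolysaccharide, had 6.93 to 21.9 CPM in CON (median 13.7) and 15.9 to 67.2 CPM in RES (median 33.7). Levels in 5 of 6 RES libraries exceeded all CON libraries (log2 fold change 1.37 ± 0.31, adjusted p = 0.0185), and the gene did not pass without RES replicate 3 or 6. The adaptor gene Myd88 rose by 0.98 on the log2 scale, while Tlr4 (0.32) and Tlr2 (0.33) did not pass. Lbp, which codes for a protein that hands lipopolysaccharide to CD14 and is outside this list, had 1.52 to 8.44 CPM in CON and 9.63 to 27.4 CPM in RES (1.72 ± 0.36, adjusted p = 0.0142).

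Of 21 inflammatory cytokine, chemokine and NF-kappaB feedback genes, 2 passed upward and 1 downward. Over all genes tested 3.71% passed higher and 1.26% lower. The median log2 fold change of the list was -0.23 (0.02 with GC and length offsets). The chemokines Ccl9 and Ccl6 rose by 0.62 and 0.59, with Ccl9 past the test in all 12 leave-one-out fits and Ccl6 in 3 of them. Nfkbiz, which codes for a nuclear regulator of NF-kappaB, fell from 108 to 138 CPM in CON to 47.1 to 96.0 CPM in RES, without overlap (-0.68 ± 0.17, adjusted p = 0.0262). Il1b (0.85, adjusted p = 0.145) and Tnf (-0.76, adjusted p = 0.162) did not pass. Among 22 CD300, LILR and TREM receptors, 3 passed upward and 1 downward. The lower one was Lilrb4a, an inhibitory receptor, at 202 to 251 CPM in CON and 66.2 to 180.1 CPM in RES (-1.13 ± 0.33, adjusted p = 0.0477), which kept its adjusted p only without RES replicates 1 or 4 among the 12 fits with 1 library left out. Of 23 adhesion and chemokine receptor genes, Icam1 (0.67) and Ccr1 (1.32) passed, and 21 did not. Ccr1 passed only in the fits without CON replicate 2 or RES replicates 1, 2 or 4 among the 12.

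The lysosomal genes that passed the test were all higher in RES, most by less than 2-fold. Of 21 lysosomal and lysozyme genes 11 passed, all higher, with a median log2 fold change of 0.57. Ctsd, the aspartic protease cathepsin D, had 38.7 to 82.2 CPM in CON (median 59.8) and 67.8 to 212 CPM in RES (median 139.6), with 4 of 6 RES libraries above CON (1.19 ± 0.28, adjusted p = 0.0213). Lyz2, lysozyme, one of the most abundant monocyte transcripts, had 12881 to 16025 CPM in CON and 17913 to 25058 CPM in RES (0.57). Lamp1 rose by 0.62. The number that passed was 2 without RES replicate 3 or 6, 3 without RES replicate 5 or CON replicate 1, 4 and 5 without CON replicates 3 and 2, 7 without CON replicate 5 or 6, and 8 to 13 in the other such fits, and Ctsd did not pass without CON replicate 1 or RES replicates 3, 5 or 6.

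Of 22 glutathione, thioredoxin and antioxidant genes 7 passed, all higher, with a median of 0.57. Prdx2, a peroxiredoxin that is also abundant in red cells, had 38.6 to 54.7 CPM in CON and 71.7 to 155 CPM in RES (1.08 ± 0.22, adjusted p = 0.0138). Glutathione reductase (Gsr, 0.98), Gpx4, which reduces lipid peroxides (0.92), and superoxide dismutase 1 (Sod1, 0.79) passed as well. Among 20 glycolysis genes Aldoa, Pgk1, Eno1 and Pkm passed with log2 fold changes of 0.73, 0.68, 0.76 and 0.71. None of these 20 did without CON replicates 1, 2, 3 or 6 or RES replicates 3, 5 or 6, while without CON replicates 4 and 5 the number was 1 and 2, and without RES replicates 2, 1 or 4 it was 7, 8 or 8. For the antioxidant list it was 4 without RES replicate 3 or 6 and 12 without RES replicate 4. Of 21 genes of lipid handling and eicosanoid synthesis 4 passed, Pla2g7, Plin2, Alox5ap and Cyp4f18, and only 1 did without CON replicates 1 or 3 or RES replicates 3, 5 or 6, and 2 without CON replicates 2 or 6. Pla2g7, which codes for the secreted hydrolase of platelet-activating factor, had 119 to 148 CPM in CON and 177 to 411 CPM in RES (1.06 ± 0.20, adjusted p = 0.0138), with no overlap. The coagulation factor gene F10 had 97.3 to 144 CPM in CON and 147 to 494 CPM in RES (1.30 ± 0.27, adjusted p = 0.0142). Of 14 NAD and purine ectoenzyme genes 2 passed, the related NAD-consuming enzymes Bst1 and Cd38, and the median was -0.10. Bst1 had 16.1 to 31.6 CPM in CON and 36.8 to 82.8 CPM in RES (1.34 ± 0.25, adjusted p = 0.0138), and Cd38 was at 0 to 0.241 CPM in CON and 0.605 to 4.98 CPM in RES, too low for a useful fold. Cd38 did not pass without CON replicates 1 or 3 or RES replicate 6.

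Further genes with changes among the clearest in the comparison belong to none of these lists. Gcnt2, a glycosyltransferase that branches poly-N-acetyllactosamine chains, rose from a median of 14.0 CPM in CON to 75.4 CPM in RES (2.34 ± 0.37, adjusted p = 0.00843). Ppp2cb, a catalytic subunit of protein phosphatase 2A, rose by 1.14. Of 8 CDK inhibitor and D cyclin genes only Cdkn2d passed. It codes for p19INK4D, an inhibitor of CDK4 and CDK6, and had 15.9 to 31.0 CPM in CON and 35.6 to 89.0 CPM in RES (1.25 ± 0.24, adjusted p = 0.0138). None of 24 cell cycle genes passed, and Mki67 differed by -0.52 (adjusted p = 0.480). Gcnt2, Ppp2cb and Cdkn2d passed in all 12 fits with 1 library left out.

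**Figure D3:**
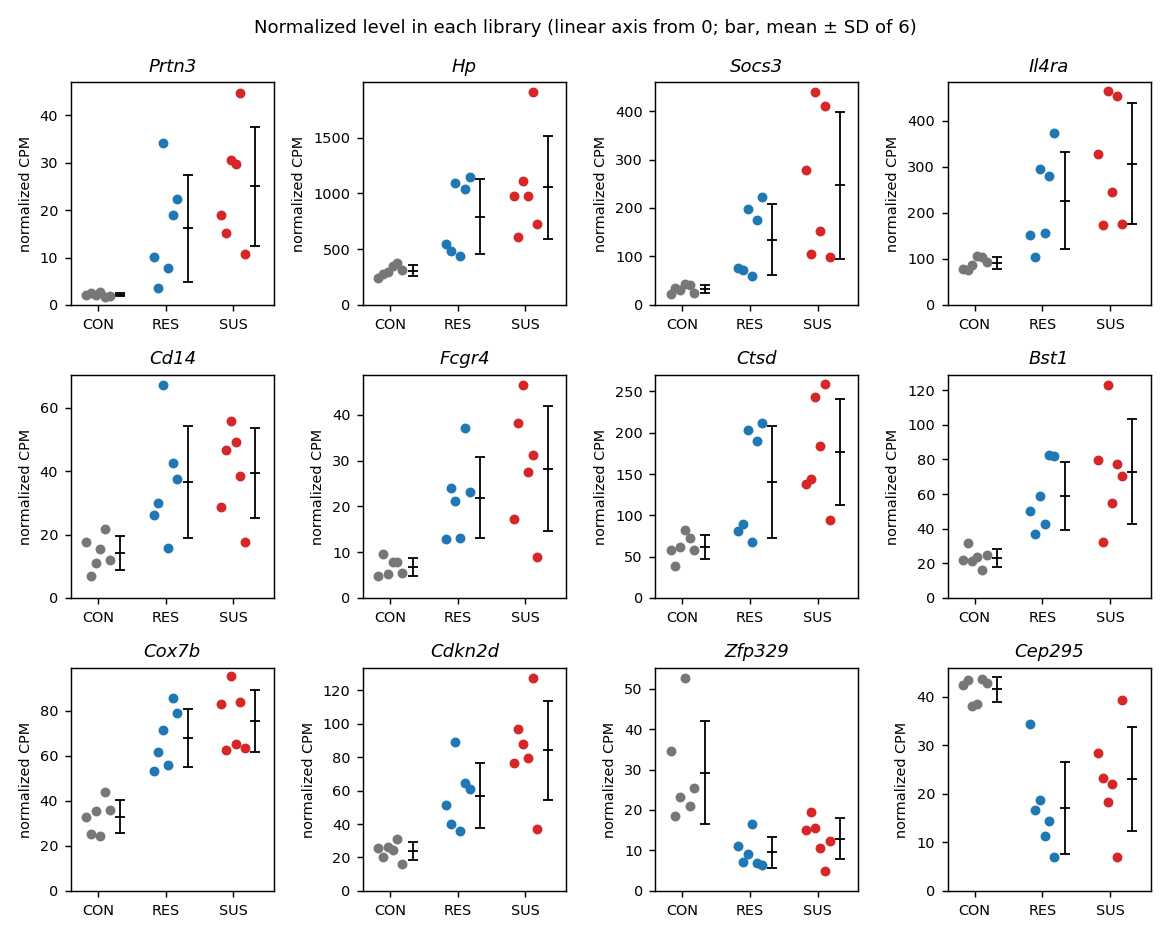
CPM (linear axis from 0) of 12 genes in each Ly6Chigh library of CON, RES and SUS mice, 6 libraries per group, with the mean and SD. Levels of Prtn3, Hp, Socs3, Fcgr4, Bst1, Cox7b and Cdkn2d in RES lie above all CON libraries, those of Zfp329 and Cep295 lie below, and Il4ra, Cd14 and Ctsd overlap between the groups.

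Genes of the ribosome had the highest share past the test among the 33 lists, and nuclear genes of mitochondrial respiration were also higher where they passed. Of 79 cytosolic ribosomal protein genes 68 passed the adjusted p, all higher, and none reached a 2-fold change (median log2 fold change 0.71, against -0.03 for all genes). They were 41 of 48 genes of the large subunit and 27 of 31 of the small subunit. Rplp0, a protein of the ribosomal stalk on chromosome 5 (115559467 to 115563727), had 967 to 1348 CPM in CON (median 1088) and 1398 to 3503 CPM in RES (median 2076), without overlap (0.98 ± 0.24, adjusted p = 0.0233), and did not pass without CON replicates 1 or 3 or RES replicates 3, 5 or 6. Ribosomal protein genes have many processed pseudogenes, and how reads that match several copies were counted is not known in full. The mean log2 level of the list lay between 7.15 and 7.39 in CON and between 7.56 and 8.28 in RES.

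Of 79 nuclear genes for subunits of oxidative phosphorylation 29 passed, all higher, and 3 were called, Cox7b, Ndufa4 and Uqcr10 (median 0.66). By complex, 12 of 35 passed in complex I, 1 of 4 in complex II, 3 of 9 in complex III, 4 of 14 in complex IV and 9 of 17 in ATP synthase. Cox7b, a small subunit of cytochrome c oxidase (chromosome X, 106015700 to 106022450), had 24.5 to 43.7 CPM in CON (median 34.2) and 53.2 to 85.5 CPM in RES (median 66.5). It had one of the tightest differences of the comparison (1.04 ± 0.17, adjusted p = 0.00843) and passed in all 12 fits with 1 library left out. Ndufa4 (1.11 ± 0.22) and Uqcr10 (1.10 ± 0.29) had similar changes, and Uqcr10 passed in 4 of these 12 fits, those without CON replicates 3 or 4 or RES replicates 1 or 4. The 13 subunits that mitochondrial DNA encodes did not follow, since none passed and their median was -0.28 (0.14 with GC and length offsets, 0.37 with the dendritic marker covariate). Their mean log2 level was uneven within both groups, at 8.78 to 8.92 in CON replicates 1, 2 and 3 and 8.11 to 8.32 in CON replicates 4, 5 and 6, and at 8.80 to 8.81 in RES replicates 1 and 2 and 7.91 to 8.10 in the other 4 RES libraries. Of 39 proteasome subunit genes 10 passed, all higher, with a median of 0.51, and 2 to 5 did without any 1 CON library or RES replicate 3, 5 or 6.

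These 2 lists rested on many libraries but not on all fits. When 1 library was left out, 16 (without RES replicate 6) to 74 (without RES replicate 4) ribosomal genes and 6 to 40 oxidative phosphorylation genes, for the same libraries, still passed. Ribosomal counts also fell to 19, 23, 36 and 41 without RES replicate 3, CON replicate 1, CON replicate 3 and RES replicate 5, and the oxidative phosphorylation counts to 7, 9, 9, 11, 14, 17 and 17 without RES replicate 3, CON replicate 1, RES replicate 5 and CON replicates 3, 2, 4 and 6. With the red cell markers as a covariate none passed in either list, and the medians were 0.36 and 0.28, where all genes had 0.08. With GC and length offsets 70 and 37 passed.

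**Figure D4:**
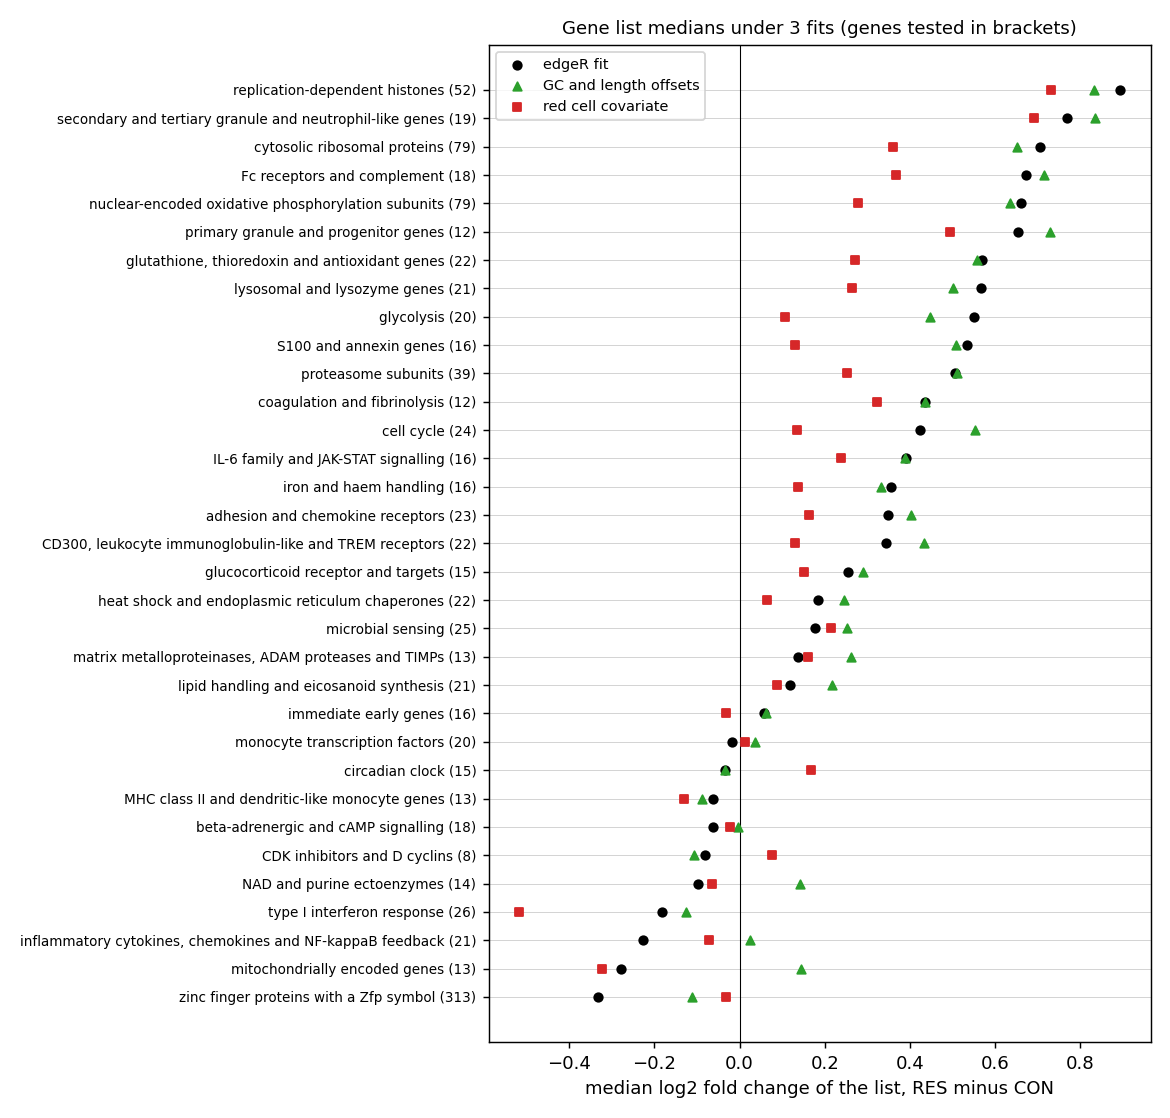
Median log2 fold change of RES against CON for 33 gene lists under 3 fits: the edgeR fit, the fit with GC and length offsets and the fit with red cell markers as a covariate. Ribosomal and oxidative phosphorylation lists have medians above 0 in all 3 fits, while the mitochondrially encoded list changes sign between the edgeR fit and the offsets.

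Genes of zinc finger proteins were found among the protein-coding genes that fell. Of 313 genes with a Zfp symbol, taken by name and not by the type of zinc finger, 12 passed and all were lower. Of these 7 were called, and the list's median log2 fold change was -0.33. The called ones were 2.24% of the list, where 0.466% of all genes tested were called lower and 1.26% passed lower. Zfp329 (chromosome 7, 12804977 to 12818858) had 18.4 to 52.7 CPM in CON (median 24.3) and 6.28 to 16.5 CPM in RES (median 8.17). The groups did not overlap (-1.61 ± 0.31, adjusted p = 0.0138), and the gene passed in all 12 fits with 1 library left out. Zfp182 had 17.9 to 29.9 CPM in CON and 3.94 to 15.1 CPM in RES (-1.49 ± 0.34, adjusted p = 0.0196), and did not pass without CON replicate 1 or RES replicates 3, 5 or 6. Zfp40 (-2.07), Zfp932 (-1.44), Zfp950 (-1.25), Zfp518a (-1.22) and Zfp280d (-1.07) were also called, of which Zfp40, Zfp932 and Zfp950 passed in 6, 2 and 3 of the 12 fits. Cep295, a centriole protein, had 38.0 to 43.6 CPM in CON and 6.90 to 34.3 CPM in RES (-1.28 ± 0.32, adjusted p = 0.0259) and did not pass without CON replicates 1 or 6 or RES replicates 3, 5 or 6. Col9a3 (-2.41), a collagen chain, Fastkd5 (-1.71), a mitochondrial RNA-binding protein, and the cytochrome P450 gene Cyp4f17 (-1.37) fell as well. Fastkd5 did not pass without CON replicates 1, 2, 3 or 6 or RES replicates 3, 5 or 6, nor Col9a3 without CON replicate 4 or RES replicates 3, 5 or 6, and Cyp4f17 passed in all 12 fits.

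The change of a gene moved with its base composition. When genes were split by GC content into 5 bins of equal size, from lowest to highest, the median log2 fold change was -0.40, -0.13, 0.02, 0.16 and 0.23, and the lowest bin held 44 of the 78 called lower genes with a known GC content. From the shortest to the longest of 5 bins by transcript length it was 0.03, 0.13, 0.04, -0.04 and -0.17. Called lower genes had a median GC content of 42.1% and called higher genes 53.1%, against 49.0% for all. With GC and length offsets the median of the Zfp genes was -0.11 and 5 of them passed downward, while 3 passed upward. Leaving out 1 library gave 1 (without CON replicate 1 or RES replicates 5 or 6) to 23 (without RES replicate 1) Zfp genes past the test, and the counts were 2, 3, 4, 5 and 5 without RES replicate 3 and CON replicates 6, 3, 2 and 4. In the covariate fits the median was -0.03 for red cell and 0.17 for dendritic markers.

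**Figure D5:**
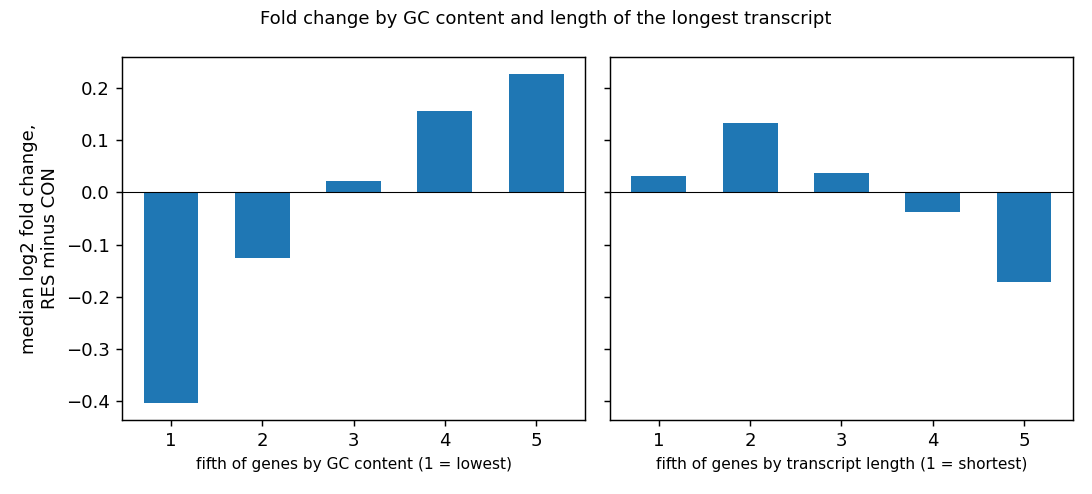
Median log2 fold change of RES against CON in 5 equal bins of GC content and 5 of transcript length over the genes tested, as bars from 0. It rises with GC content from -0.40 to 0.23 and is lowest by length in the longest bin, at -0.17.

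Several lists tied to stress and to monocyte identity held no gene or 1 gene past the test. Over all genes tested 3.71% passed higher and 1.26% lower, so such counts do not set short lists apart from all genes. None of 26 type I interferon genes passed (median -0.18), nor any of 15 glucocorticoid receptor and target genes (0.26), of 22 heat shock and chaperone genes (0.18) or of 13 MHC class II and dendritic-like genes (-0.06). The glucocorticoid-induced genes Fkbp5 (0.35, adjusted p = 0.364) and Tsc22d3 (0.38, adjusted p = 0.196) and the receptor Nr3c1 (-0.44, adjusted p = 0.177) were among those that missed it. In that list 13 of 15 genes had a log2 fold change above 0, against 48.4% of all genes tested. Its mean level was above all CON libraries in 4 of 6 RES libraries. Of 18 genes of beta-adrenergic and cAMP signalling only Grk3, a receptor kinase, passed (-0.64). Of 15 circadian genes and of 20 monocyte transcription factors only Nfil3 passed (0.92), a gene that stands in both lists. Ier3 was the only one of 16 immediate early genes (2.64), at 0.540 to 2.15 CPM in CON and 0.522 to 10.5 CPM in RES, and did not pass without RES replicates 3, 5 or 6. Among 16 S100 and annexin genes 3 passed, S100a6 (0.77), S100a10 (0.76) and Anxa2 (0.71), all 16 had a log2 fold change above 0 and the median was 0.53, whereas S100a8 and S100a9 had log2 fold changes of 1.02 and 0.77 with adjusted p of 0.538 and 0.731. Among 16 iron and haem genes (median 0.36) 3 passed, Hp, Hmox1 (0.75), the haem-degrading oxygenase, and Fech (0.83), which makes haem. Of 52 replication-dependent histone genes 1 passed, higher, where 3.71% of all genes tested passed higher, although the list median was 0.89.

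Among stressed mice, few genes passed the test between RES and SUS monocytes. No gene met both limits (620 had an unadjusted p under 0.05, and DESeq2 called 20), and 1 gene, 0.0059% of those tested, passed the adjusted p. This was Cd74, the invariant chain that guides MHC class II molecules. It had 371 to 548 CPM in CON (median 472), 372 to 579 CPM in RES (median 422) and 215 to 253 CPM in SUS (median 232). RES and CON overlapped, with 1 RES library above the highest CON library, and every RES library was above every SUS library (log2 fold change of RES against SUS 0.93 ± 0.12, adjusted p = 0.00175). H2-Ab1, a class II chain, was likewise higher in 6 of 6 RES libraries than in any SUS library (1.03 ± 0.21), but missed the test (adjusted p = 0.396). H2-Aa (1.21, adjusted p = 0.0756), H2-Eb1 (1.18, adjusted p = 0.710) and Cd209a (2.19, adjusted p = 0.710), a lectin of monocyte-derived dendritic cells, missed it too. Of the 13 genes of that list 5 had an unadjusted p under 0.05, all higher in RES, and the list median was 0.43 against -0.01 for all genes.

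For the genes that set RES apart from CON, SUS values stood beside them as follows, from comparisons that share the 6 CON libraries. Mean levels in SUS were 25.0 CPM for Prtn3, 1054 CPM for Hp, 308 CPM for Mmp8, 247 CPM for Socs3 and 307 CPM for Il4ra. The difference of SUS against CON was 1.49 on the log2 scale for Mmp8 (RES against CON 0.96) and 1.77 for Hp (RES against CON 1.36). None of these genes passed the test between RES and SUS, with log2 fold changes of RES against SUS of -0.53 for Mmp8 and -0.41 for Hp.

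The change from CON to RES was set against the same change in the other sorted cells in fits over 24327 genes. Against Ly6Clow monocytes, with 4 CON libraries, 17 genes (0.0699%) differed, 2 of them among the 169, or 6 without the 2 libraries that go against their labels, and none of the genes named by the rule in the methods. Il4ra rose by 1.34 in Ly6Chigh monocytes and by 0.41 in Ly6Clow monocytes, a difference that did not pass (adjusted p = 0.219). Against B cells 1268 genes differed (5.21%), 79 of the 169 among them, or 45 without the 2 libraries that carried the markers of the other lymphocyte. Against T cells 457 genes differed (1.88%), 37 of the 169 among them, or 21 without those libraries. Fits on Ly6Chigh monocytes and 1 other cell type alone gave 0, 36 and 2 genes for Ly6Clow monocytes, B cells and T cells, and without the 2 libraries the fit over all cells gave 400 for B cells and 173 for T cells. Il4ra changed by -0.12 in B cells and 0.14 in T cells, and differed from Ly6Chigh monocytes in both (adjusted p = 0.00309 and 0.0208). Cox7b changed by -0.00 and -0.29 and also differed in both (adjusted p = 0.0135 and 0.00393), and Zfp329 differed in both as well, with changes of 0.27 in B cells and -0.06 in T cells. In the fit over all cells these 3 genes differed in both cell types with and without the 2 libraries. In the fit on Ly6Chigh monocytes and T cells alone 1 gene was larger and 1 smaller, so Il4ra and Cox7b did not both pass there. Socs3 rose by 2.14 in B cells as labelled and by 1.02 without the 2 libraries, and the difference from its change in monocytes did not pass the test.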

How the data were processed

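Ly6Chigh monocytes were profiled as bulk RNA-seq of sorted blood leukocytes, 6 CON and 6 RES libraries, with 6 SUS libraries in the same fit. The authors aligned reads of a stranded total RNA kit to mm10 with HISAT2 and counted them per gene with htseq-count, per the labels and methods, and the deposited values are raw counts for 52636 Ensembl genes (the strand option is not given in the sources used here). edgeR 4.0.16 in R 4.3.3 (TMM scaling, filterByExpr, quasi-likelihood F test, robust) was fitted to the 18 libraries over 16955 genes, with Benjamini-Hochberg adjustment. Calls needed an adjusted p below 0.05 together with a change over 1 on the log2 scale. SE is the fold change divided by the root of F. List and marker levels are means of log2(CPM + 0.5). Changes between cell types were interaction contrasts over all 70 libraries and 24327 genes. DESeq2 1.42.0, other filters, scalings, covariates and leave-one-out fits were alternatives. The test was checked on simulated counts (16140 genes). Gene types and coordinates come from GENCODE M21 for 52489 identifiers. Genes, gene lists and markers were chosen with earlier results of these data known. Named genes are the 8 higher and 8 lower called protein-coding genes with the largest changes among those without overlap that averaged 50 counts or more, those with the 5 smallest p-values, up to 4 called genes of each list or else its 2 most abundant, and Ly6c2, Ccr2 and Mmp8. Further genes in the text were chosen after their values were seen. No pair of replicates of a group held identical values. A few genes are not reported here.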

Additional observations from a re-analysis of the deposited data

Results flagged for a closer look

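Among 176 groups of 6 libraries tested with Dixon's ratio, 4 held a library far from the others, where chance flags about 1 in 20 groups. These were Slc4a1 in CON, where replicate 3 had 0.977 CPM and the others 2.07 to 2.93 CPM, Gcnt2 in CON, where replicate 3 had 23.9 CPM and the others 11.5 to 15.0 CPM, Ier3 in CON, where replicate 1 had 2.15 CPM and the others 0.540 to 0.901 CPM, and Irf5 in RES, where replicate 1 had 540.5 CPM and the others 733 to 869.8 CPM.

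The change from CON to RES in Ly6Chigh monocytes minus that in B cells passed the interaction test for 20 named genes, in log2 units. It was above 0 for Cd38 (4.76), Alkbh7 (3.17), Gcnt2 (2.84), Car2 (2.55), Il4ra (1.47), Uqcr10 (1.38), Cdkn2d (1.19), Prdx2 (1.08), Cox7b (1.06), Ndufa4 (1.03), Ppp2cb (1.03), Rpsa (0.80), Eno1 (0.68) and Pkm (0.66). It was below 0 for Ccr2 (-3.37), Mki67 (-3.11), Zfp329 (-1.86), Cyp4f17 (-1.50), Zfp182 (-1.47) and Cep295 (-1.37). Alkbh7, Ppp2cb, Cd38, Il4ra, Cox7b, Cep295, Zfp329, Uqcr10 and Cdkn2d, 9 of the 20, also passed without RES B cell replicate 6 and RES T cell replicate 6, which carried each other's lineage markers, and Mki67 and Ccr2 then differed by -1.49 and -1.24.

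Against T cells, 16 named genes passed. The difference was above 0 for Ctsd (1.52), Cox7b (1.34), Uqcr10 (1.31), Ndufa4 (1.26), Il4ra (1.21), Ppp2cb (1.20), Rplp0 (0.96), Rpsa (0.91) and Eno1 (0.84), and below 0 for Cd74 (-6.36), H2-Ab1 (-6.34), Irf5 (-2.87), Chrna2 (-1.77), Zfp182 (-1.59), Zfp329 (-1.53) and Cep295 (-1.20). Ctsd, Ppp2cb, Ndufa4, Il4ra, Cox7b and Zfp329, 6 of the 16, also passed without those 2 libraries. Without them, the differences of Cd74, Irf5 and H2-Ab1, which B cells express strongly, were 0.30, -0.18 and 0.50.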

How the results depend on the processing

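Of 169 genes called between RES and CON (90 higher, 79 lower), DESeq2 called 507 (127 higher, 380 lower; 154 of the 169 among them) and 694 with only these 2 groups (138 and 556), and 20 between RES and SUS (6 and 14). edgeR on only the 2 groups called 259 (173 lower). The adjusted p alone gave 842 (629 higher, 213 lower), and 1 between RES and SUS, higher. A test against a log2 fold change of 1 (glmTreat), and red cell, platelet or dendritic covariates, gave 0, 0 and 0 calls, higher or lower. Without a low-count filter, or with the red cell covariate, 1 gene was called between RES and SUS, higher. Without RES replicates 2 and 3, 9 were called, 9 higher and 0 lower. Leaving out 1 library gave 29 to 365 calls, 21 to 151 higher and 8 to 224 lower, and 0 to 1 between RES and SUS, 0 to 1 higher. The GC and length offsets called 169, 113 of them shared. Under the dendritic covariate Zfp182 (0.15), Lilrb4a (0.17), Anxa2 (-0.22), Pkm (-0.12), Eno1 (-0.16) and Rplp0 (-0.069) turned sign. Of 48 named genes past the adjusted p, 40 missed it without RES replicates 2 and 3, 8 without the filter and 4 with the offsets, and all 48 under the red cell or platelet covariate. The cause of these changes was not tested.

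Of the interaction counts, fits on only the 2 cell types gave 0 genes against Ly6Clow monocytes (0 larger, 0 smaller), 36 against B cells (10 and 26) and 2 against T cells (1 and 1). A mean of at least 50 counts gave 10 against Ly6Clow monocytes (1 and 9), and leaving out 1 Ly6Clow CON library gave 1 to 11 (1 to 3 larger, 0 to 8 smaller). Without the 2 libraries against their labels, 400 differed against B cells (176 and 224) and 173 against T cells (62 and 111). With DESeq2 size factors 71 were larger against T cells.

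No paired analysis was possible because the labels give only a running library number and none that the groups share, and the replicate numbers used here follow that order and name libraries only. In simulated counts 84% of genes with a log2 fold change of 3 passed, among genes that averaged at least 50 counts. Of the 169 called genes, 37 averaged under 50 counts, where depth limits the estimate. Such levels were common among all genes too, since the fit on genes with a mean of at least 50 counts tested 12736, against 16955.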
